A study of Mus musculus with 14 samples.

Results

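The effect of deleting Mfn1 from POMC neurons was followed in the hypothalamus of fed mice, by setting the 4 arrays of knockout fed mice against the 4 arrays of control fed mice. These 8 arrays, chosen by their genotype and feeding labels, were part of 14; the other 6 came from fasted mice of the same genotypes, 3 arrays each, and gave the same contrast after fasting as well as a share of the estimated spread. All mice were 12 weeks old and of a background mixed from C57Bl/6J, FVB/N and 129. Knockout mice (POMCMfn1KO in the labels) lacked Mfn1 in POMC neurons, control mice carried no further description, "fed" stands for random feeding and "fasted" for 16 h without food. Biotinylated RNA from whole hypothalamus, 150 ng of total RNA a sample, was hybridised to 1-colour Affymetrix arrays. The labels do not say how the deletion was made, whether control mice carried a Cre driver or floxed alleles, or whether 1 array is 1 mouse, so p-values reflect only the scatter of these samples, which may in part be technical.

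Mitofusin 1, the product of Mfn1, is a GTPase of the outer mitochondrial membrane that joins the membranes of neighbouring mitochondria; Mfn2 is its close relative, Opa1 fuses the inner membrane, and Dnm1l (Drp1) divides the organelle. POMC neurons of the arcuate nucleus release melanocortin peptides that limit food intake and respond to glucose, leptin and insulin, while neighbouring AgRP neurons make Npy and Agrp and drive feeding. POMC neurons are a small fraction of hypothalamic cells, so a change confined to them is diluted in this tissue, and fewer cells of a type cannot be told apart from less RNA per cell.

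Values are log2 expression, in which a difference of 1 is a doubling. Differences are knockout minus control, with the standard error (SE) of a limma fit, and each of the 17097 genes was read from the probe set that names only that gene and had the highest mean over the 8 fed arrays. A gene passed when its p, adjusted over all genes by the Benjamini-Hochberg method, was below 0.05. Arrays are numbered within their group only as names. Medians of the 8 fed arrays lay between 4.98 and 5.05, Pearson's r between them, across probe sets, between 0.9928 and 0.9968, and the 23 probe sets without a target had a median of 3.64, taken here as background. The difference between the 3′ and 5′ probe sets of Actb, a sign of RNA integrity, was 0.77 to 0.90 in the 8 fed arrays. The number in the title of knockout fed array 1 falls among those of the fasted arrays, whereas the other 7 fed arrays form a later run; what the numbers stand for is not given.

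Of 17097 genes, 1 passed in fed mice (0.00585%): Nrip2, which encodes a nuclear receptor-interacting protein, was lower in the knockout. At an unadjusted p below 0.05 there were 790 genes (4.62%), 373 higher (2.18%) and 417 lower (2.44%). The 4 knockout values lay wholly outside the 4 control values for 420 genes (2.46%), above them for 167 (0.977%) and below them for 253 (1.48%). Differences were small in the bulk of genes, with a median of -0.005 and quartiles of -0.06 and 0.05. The 95% confidence interval lay wholly within ±0.5 for 94.8% of genes and within ±1 for 99.5%, and its median half-width was 0.18. Only 49 genes differed by more than 0.5 in either direction. The 13 genes above 1 were all higher in the knockout, and none fell below -1.

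**Figure D1:**
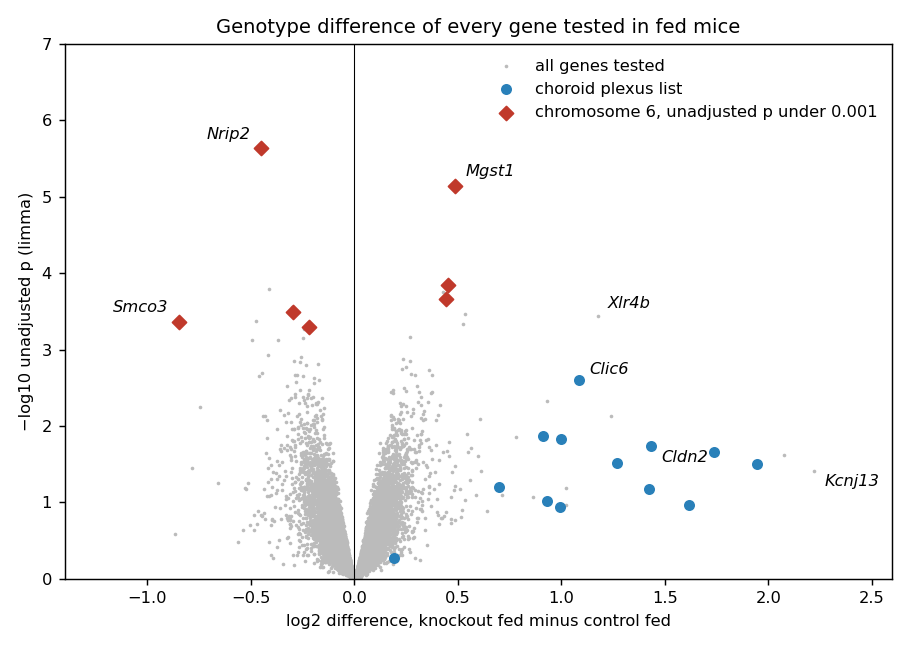
Log2 difference between knockout fed and control fed mice (x axis) against the −log10 of the unadjusted limma p (y axis) for every gene tested, 4 arrays a group; blue circles are the choroid plexus list and red diamonds the chromosome 6 genes with an unadjusted p under 0.001. The genes with the lowest p, Nrip2 and Mgst1, differed by under 0.5, while the largest differences, to the right of 1, belong mostly to genes of the choroid plexus.

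Over whole hypothalamus, the deleted gene showed no difference past the threshold. Mfn1 was at 8.99, 9.08, 9.10 and 8.99 in control fed arrays and at 9.03, 9.06, 9.03 and 9.12 in knockout fed arrays, and the groups overlapped. The difference was 0.02 ± 0.05 (SE, n = 4 and 4 arrays; 95% confidence interval -0.08 to 0.12; limma adjusted p = 0.995). Its other 2 probe sets differed by 0.14 and -0.04, neither at an unadjusted p below 0.05. Whether any of these probes lie in the deleted part of Mfn1 is not known here, so they check the labels only weakly. In fasted mice the Mfn1 difference was 0.00 ± 0.05.

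The other genes of mitochondrial shape were also close to their control levels. Mfn2 differed by 0.08 ± 0.06, Opa1 by 0.02 ± 0.05 and Dnm1l by 0.08 ± 0.04, each with a limma adjusted p of 0.995. All 4 knockout values of Dnm1l, 11.49, 11.46, 11.48 and 11.46, lay above the control values of 11.34, 11.40, 11.44 and 11.39; in fasted mice the difference was -0.03. Mff, the receptor that brings Dnm1l to mitochondria, was at -0.08 ± 0.04. Of 24 mitochondrial dynamics genes measured, none reached even an unadjusted p of 0.05, and their median difference was 0.02, against -0.005 over all genes. The 48 subunits of oxidative phosphorylation measured spanned only -0.07 to 0.06 (median -0.00), again with none at an unadjusted p below 0.05. Among 15 mitophagy and mitochondrial biogenesis genes 1 was below that mark: Gabpa, a nuclear respiratory factor subunit, at -0.22 ± 0.10.

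Nrip2 lies on chromosome 6 and had the lowest unadjusted p of all genes in the main fit. Its level was 7.97, 8.01, 8.10 and 8.02 in control fed arrays and 7.43, 7.70, 7.56 and 7.61 in knockout fed arrays. Every knockout array was below every control array, and the lowest of all was knockout fed array 1. The difference was -0.45 ± 0.06 (SE; limma adjusted p = 0.0396), which is 73.2% of the control level (95% confidence interval 67.2% to 79.7%). Fasted mice, whose arrays enter this difference only through the shared estimate of the spread, had 8.12, 8.13 and 8.21 in control and 7.71 in each of the 3 knockout arrays, a difference of -0.44 ± 0.07 (limma adjusted p = 0.219). The 2 other Nrip2 probe sets were at -0.24 and -0.16 in fed mice and at -0.35 and -0.36 in fasted mice.

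The call on Nrip2 depended on the setting, and its direction did not. Its difference lay between -0.28 and -0.49 under 24 other settings and passed under 8 of them. Among the 8, entering the number series of the titles and leaving out knockout fed array 1 are the same fit. With single arrays left out, the limma adjusted p was 0.105, 0.0965, 0.125 and 0.212 without control fed arrays 1 to 4, 0.0455 and 0.0208 without knockout fed arrays 1 and 2, and 0.244 and 0.146 without knockout fed arrays 3 and 4.

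Further chromosome 6 genes stood next in the ranking. Of the 19 genes with an unadjusted p below 0.001, 7 lie on chromosome 6, which carries 5.56% of the genes whose chromosome is known; 1 of the 7 has only a clone name. The same 7 are among the 16 genes chosen for naming, the 8 with the lowest p in each direction; since low p chose them, their p-values and the separation of their groups describe them and are no further test. None except Nrip2 passed. At an unadjusted p below 0.05, chromosome 6 as a whole held 5.53% of its genes, within the range of the other autosomes and the X (2.57% to 6.04%).

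Mgst1, a microsomal glutathione transferase that detoxifies lipid peroxides, came closest to passing. Its level was 9.04, 9.13, 8.92 and 9.0 in control fed arrays and 9.46, 9.57, 9.56 and 9.45 in knockout fed arrays. The groups were separated by more than the whole spread within either of them. The difference was 0.49 ± 0.07 (limma adjusted p = 0.0608), or 1.4-fold (95% confidence interval 1.27 to 1.55), and it passed under 3 settings named in the closing section. With only the fed arrays in the fit, the unadjusted limma p of Mgst1, 1.7e-05, was below that of Nrip2, 6.28e-05. In fasted mice control arrays of Mgst1 stood at 9.53, 9.61 and 9.30 and knockout arrays at 9.54, 9.62 and 9.59, a difference of 0.10 ± 0.08. The control mean was 9.02 in fed and 9.48 in fasted mice, the knockout mean 9.51 and 9.58. Dera, an aldolase that breaks down deoxyribose phosphate, followed the same course: 5.34, 5.43, 5.37 and 5.26 in control fed against 5.83, 6.00, 5.66 and 5.71 in knockout fed arrays, a difference of 0.45 ± 0.09 in fed and 0.03 ± 0.10 in fasted mice.

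Smco3, which encodes a small membrane protein, had the largest negative difference of the named genes. Control fed arrays were at 7.34, 6.99, 7.10 and 6.88 and knockout fed arrays at 6.32, 6.08, 6.04 and 6.47, with no overlap. The difference of -0.85 ± 0.18 (limma adjusted p = 0.61) puts the knockout at 55.5% of the control level (95% confidence interval 42.2% to 72.9%). In fasted mice, where the groups of 7.65% of all genes do not overlap with 3 arrays each, it was -0.92 ± 0.21, again with no overlap. Eps8, which caps and bundles actin filaments, was at 9.65, 9.81, 9.74 and 9.77 in control fed and 9.36, 9.48, 9.55 and 9.40 in knockout fed arrays, a difference of -0.29 ± 0.06, and at -0.22 ± 0.07 in fasted mice. All 3 of its probe sets were lower in the fed knockout, at -0.29, -0.21 and -0.14. Dppa3, a germ line and early embryo factor, was near background in both groups, at 3.73 to 3.93 and 3.60 to 3.65.

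**Figure D2:**
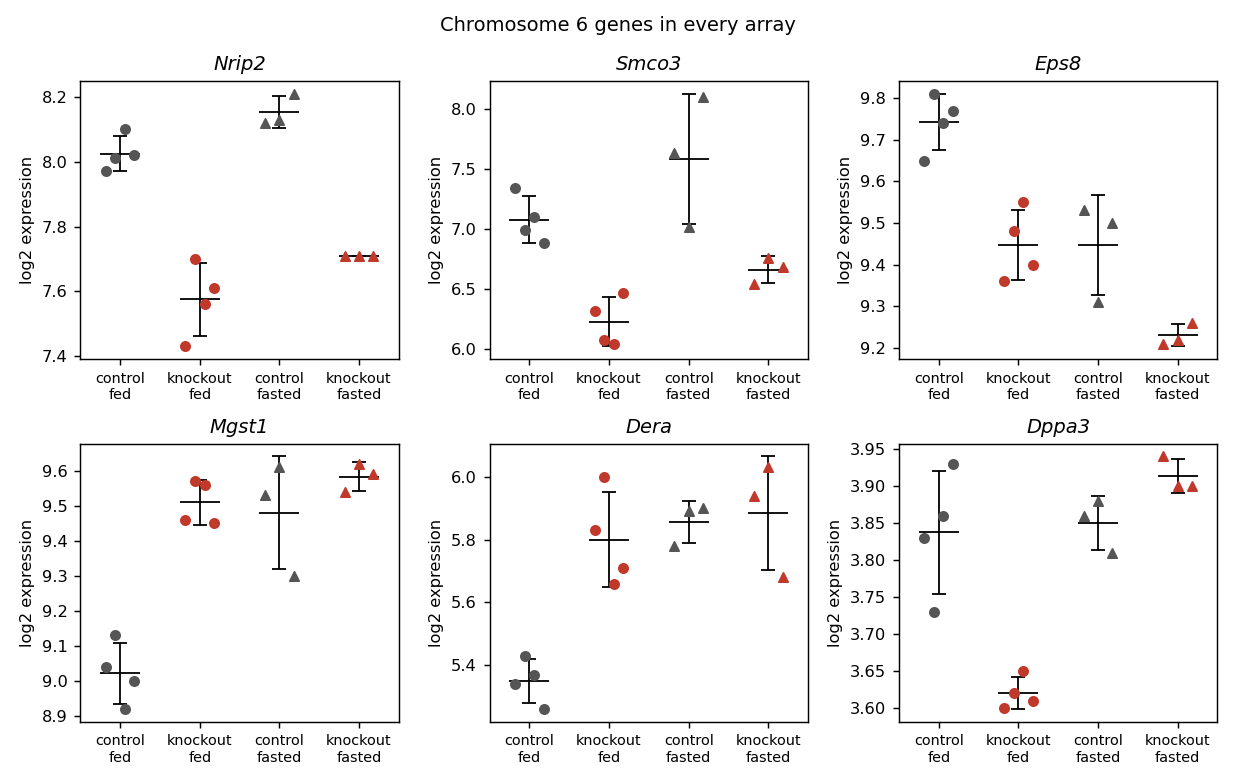
Log2 expression (y axis) of 6 chromosome 6 genes named by low p in fed mice, in every array of the 4 groups (x axis); circles are fed and triangles fasted arrays, grey control and red knockout, with the mean and SD of each group as black bars. In fed mice the groups do not overlap for any of the 6, by the choice of the genes; Nrip2, Smco3 and Eps8 are lower in the knockout after fasting too, whereas Mgst1 and Dera overlap there.

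All 7 genes lie in the last part of the chromosome. In gene order they fall between the 714th (Dppa3) and the 881st (Mgst1) of the 941 chromosome 6 genes tested. Nrip2 is the 795th, with 80 tested genes between it and Dppa3 on one side and, on the other, 73 tested genes between it and Smco3, 81 between it and Eps8, 83 between it and Dera and 85 between it and Mgst1. Of 330 consecutive windows of 50 genes over all chromosomes, 3 held 5 or more genes whose fed groups did not overlap, where the median window held 1. The window from Lockd to Gys2, which contains Smco3, Eps8, Dera and Mgst1, was among these 3 with 5 such genes, and the one from Mlf2 to Clec2h, which contains Nrip2, held 4. Of the 5 genes in the first, 4 are those chosen by low p in the same arrays, so the counts describe the choice and do not test it. The other 2 windows were on chromosome 8 from Insr to Col4a2, with 6, and on chromosome 2 from Scn7a to Atf2, with 5. Lmo3, a LIM-only transcriptional cofactor in the Lockd to Gys2 window, singled out here after its values were seen, was at -0.75 ± 0.23 with no overlap, but control fed array 1, at 9.43, lay far above the other control arrays (8.07 to 8.28), and the fasted difference was -0.00.

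Beside Nrip2 itself, 4 of its 20 nearest neighbours in gene order had an unadjusted p below 0.05, against 4.62% of all genes, and 1 of the 20 had separate groups. The 2 with the lowest p were higher in the knockout: Itfg2, a subunit of the KICSTOR complex of nutrient sensing, by 0.28 ± 0.10 (fasted 0.35), and Tulp3, a tubby-like protein of primary cilia, by 0.25 ± 0.10 (fasted 0.08). Other probe sets of Tulp3 were at -0.03 and -0.09 in fed mice. The rest of the 4 neighbours were lower in the knockout, at -0.25 and -0.20. Over the 20 neighbours, which include a cluster of natural killer cell receptor genes, differences ran from -0.25 to 0.28.

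The same contrast in fasted mice gave a second reading of direction, although the fasted arrays share the fit's estimate of the spread, and so had a part in which genes had a low p in fed mice. Groups that did not overlap in both feeding states, in the same direction, were found for 21 genes (0.123% of those tested), and in opposite directions for 15 (0.0877%). Of the 21, 7 lie on chromosome 6 (33.3%): Nrip2, Smco3, Eps8, Cd9, Cdkn1b, Rab19 and Cpa4. The first 5 fall between the 770th and the 877th gene in order. Cd9, a tetraspanin, was higher in the knockout by 0.19 in fed and 0.29 in fasted mice, and Cdkn1b, which encodes the cell cycle inhibitor p27, was lower, at -0.16 and -0.22. Rab19 and Cpa4 were near background. Cdkn1b at -0.16 was read from 1 of several probe sets, and the mean of its probe sets gave 0.02 in fed mice.

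**Figure D3:**
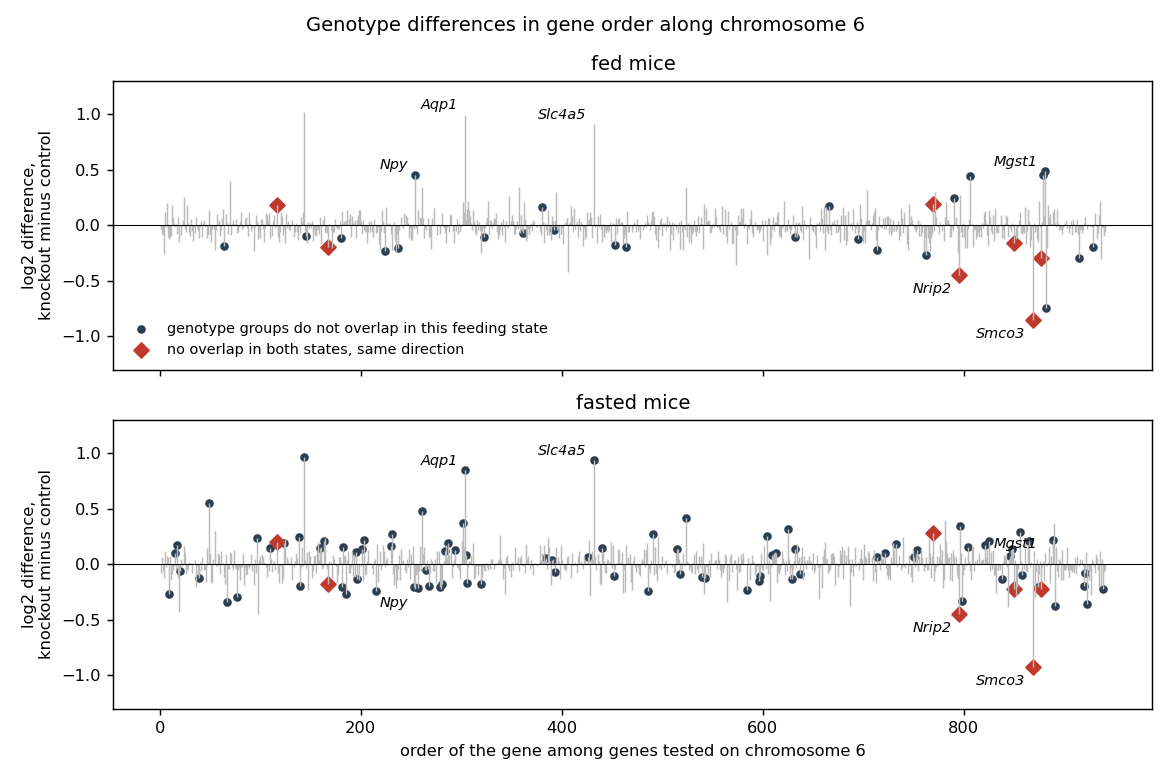
Log2 difference between knockout and control (y axis) for each chromosome 6 gene tested, in gene order (x axis), in fed mice (top, 4 against 4 arrays) and fasted mice (bottom, 3 against 3); dots mark genes whose genotype groups do not overlap in that state and red diamonds those that do not overlap in either state, in the same direction. Of the 7 diamonds, 5 stand at the right, between the 770th and the 877th gene.

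Among the 9 other genes named by low p, 2 were neighbouring X-linked copies. Xlr4b, of a lymphocyte-regulated gene family with near-identical members, was at 4.01, 4.65, 3.91 and 4.96 in control fed and 5.14, 6.08, 5.78 and 5.23 in knockout fed arrays. Its difference of 1.18 ± 0.25 (limma adjusted p = 0.61), a 2.26-fold ratio with a 95% confidence interval of 1.56 to 3.27, was the largest of the named genes, and in fasted mice it was 0.63 ± 0.29, with no overlap. Xlr4c was at 4.50 to 4.81 against 4.87 to 5.22, a difference of 0.43 ± 0.08, and at 0.07 in fasted mice. Copies this alike can share probe signal, so which of them differed is uncertain. Xlr4b and Xlr4c were also weakly expressed, with fed means of 4.97 and 4.88 against a background of 3.64.

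Another 3 genes were higher in all knockout fed arrays than in any control fed array, by 0.27 to 0.53. None had a limma adjusted p below 0.61, and their fed means, 5.89 to 7.43, exceeded those of Xlr4b and Xlr4c. Ccl25, a chemokine of gut and thymus, was at 7.07, 7.19, 7.17 and 7.24 in control fed and 7.88, 7.60, 7.74 and 7.58 in knockout fed arrays, a difference of 0.53 ± 0.11, with 0.24 ± 0.13 in fasted mice. Ovgp1, an oviductal glycoprotein, was at 5.48 to 5.74 against 6.06 to 6.28, a difference of 0.53 ± 0.12, and its fasted difference of 0.37 ± 0.13 was also without overlap. Fhit, a dinucleoside triphosphate hydrolase, was higher by 0.27 ± 0.06, and by 0.04 in fasted mice.

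The lower genes outside chromosome 6 were all weakly expressed. Spdef, an ETS transcription factor of secretory epithelia, was at 4.65, 4.49, 4.29 and 4.70 in control fed and 4.12, 4.15, 4.10 and 4.11 in knockout fed arrays. In fasted mice its order turned: control arrays were at 4.24 to 4.45 and knockout arrays at 4.50 to 4.59. The beta-defensin Defb29 was at -0.30 ± 0.06, the recombination factor Hrob at -0.48 ± 0.10 and the bHLH factor Twist2 at -0.24 ± 0.05, with fasted differences of 0.12, 0.01 and 0.03. No fed value of these 4 genes exceeded 5.33, near the background of 3.64, where small shifts are compressed. Over the 16 named genes, 10 had the same sign in fasted mice and 6 an unadjusted p below 0.05 there, 5 of those with the same sign, against 3.88% of all genes.

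Genes flanking the loci that the genotype concerns were nearly level. None of the 20 nearest neighbours of Mfn1 on chromosome 3 had an unadjusted p below 0.05, and their differences spanned -0.11 to 0.10. For 1 of the 20, a gene next to Mfn1 at -0.075, the groups did not overlap, against 2.46% of all genes. Around Pomc on chromosome 12, 1 of 16 neighbours had an unadjusted p below 0.05: Efr3b, the gene next to Pomc, which helps anchor a phosphatidylinositol kinase at the plasma membrane. Efr3b, singled out after its values were seen, was at 9.84, 9.97, 9.91 and 9.92 in control fed and 10.19, 10.02, 10.07 and 10.28 in knockout fed arrays. All knockout values were higher, by 0.23 ± 0.06 (limma adjusted p = 0.995), and the fasted difference was 0.08 ± 0.07.

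Genes of the neurons in which Mfn1 was deleted did not separate the genotypes. Pomc, the melanocortin precursor, was at 5.68, 7.15, 7.55 and 7.41 in control fed and 6.82, 7.53, 7.47 and 7.04 in knockout fed arrays. Control fed array 1 stood more than 1 below every other array and set the sign: the difference was 0.27 ± 0.34 (limma adjusted p = 0.995) with it and -0.15 without it. The same array was lowest for Cartpt, a co-released anorexigenic peptide, at 8.84 against 9.54 to 9.81, for the prohormone convertase Pcsk1, at 5.52 against 6.21 to 6.74, and for Isl1, the transcription factor that keeps POMC neuron identity, at 6.73 against 7.94 to 8.49. Of 12 POMC neuron genes measured none reached an unadjusted p of 0.05, and their median difference moved from 0.10 to -0.00 without control fed array 1, where 4.57% of all genes were below that mark and again none of these. With the choroid plexus score of each array, described further on, entered in the fit, their median was 0.09 and 3 were higher at an unadjusted p below 0.05, against 7.23% of all genes. With the cortex and hippocampus score it was 0.07, with 1 higher. Lepr, the leptin receptor, was close to background at 3.72 to 4.62 and differed by 0.10 ± 0.20.

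Npy, the orexigenic peptide of AgRP neurons, had separate groups in fed mice. It was at 8.47, 8.65, 8.65 and 8.54 in control fed and 9.16, 8.76, 8.81 and 9.41 in knockout fed arrays. Knockout fed arrays 1 and 4 were highest, and arrays 2 and 3 exceeded the top of the control range only slightly. The difference was 0.46 ± 0.18 (limma adjusted p = 0.995); in fasted mice it was -0.22 ± 0.21. The change of the genotype difference with feeding was -0.67 ± 0.28 (limma adjusted p = 1), below 0.05 before adjustment. Of the 9 AgRP neuron genes measured, Npy alone was below an unadjusted p of 0.05, and the median was 0.04.

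Other feeding and arousal peptides had a median of 0.11 over 21 measured genes, 1 higher and 1 lower at an unadjusted p below 0.05. Npvf, the precursor of gonadotropin-inhibitory RFamide peptides, was higher by 0.35 ± 0.15 and in fasted mice by 0.48. Bdnf, a neurotrophin that restrains feeding, was at -0.24 ± 0.10. Without control fed array 1 the median of this list was 0.04 and no member was below that mark. With the choroid plexus score entered in the fit the median was 0.27, with 9 higher and 2 lower, against 7.23% of all genes. None of these members passed. The 15 genes of melanocortin, insulin and leptin signalling ran from -0.16 to 0.10, with a median of 0.01 and none below it.

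The largest differences came from genes of a neighbouring tissue. The choroid plexus list, 13 measured genes of the epithelium that makes cerebrospinal fluid, had a median difference of 1.08, the only one of 37 lists beyond 0.3 from 0. All 13 were higher in the knockout mean and 7 had an unadjusted limma p below 0.05, but for none did the groups separate, and none passed. The list score of an array, the mean of its members after centring each on the 8 fed arrays, was 0.71, -0.91, -1.20 and -0.94 in control fed and -1.09, 0.98, 0.95 and 1.51 in knockout fed arrays. Control fed array 1 thus stood with the knockout arrays 2 to 4, and knockout fed array 1 with the other controls.

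Single genes showed the same 2 levels. Clic6, a chloride channel of the choroid plexus epithelium, was at 8.34, 7.19, 7.63 and 7.55 in control fed and 7.87, 8.88, 8.94 and 9.36 in knockout fed arrays, a difference of 1.08 ± 0.29 (limma adjusted p = 0.995). Kcnj13, a potassium channel of that epithelium and the largest difference of any gene at 2.22 ± 0.97, was at 8.21, 4.69, 4.43 and 4.67 against 4.76, 8.42, 8.54 and 9.17, so its 4.67-fold ratio has a 95% confidence interval of 1.09 to 19.9. The tight junction gene Cldn2 (1.43 ± 0.53), the water channel Aqp1 (1.00 ± 0.36) and the bicarbonate transporter Slc4a5 (0.91 ± 0.32) had the same order of arrays. Control fed array 1 and knockout fed arrays 2 to 4 were the 4 highest of the 8 arrays for 11 of the 13 genes that differed by more than 1 (84.6%) and for 30 of the 38 higher by more than 0.5 (78.9%). Over all 17097 genes they were so for 359 (2.1%), and for 0 of the 11 below -0.5. Xlr4b was 1 of the 2 exceptions among the 13. That order holds 3 of the 4 knockout arrays, so it raises the knockout mean by itself, and these shares describe the genes without testing them.

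Both odd arrays narrowed the choroid plexus difference. Without control fed array 1 the list median was 1.52 with 12 of 13 genes at an unadjusted p below 0.05, and without knockout fed array 1 it was 1.62 with all 13 (4.92% of all genes). Without knockout fed array 4, the array with the highest score, it was 0.89 with 1 of 13, against 4.68% of all genes. In fasted mice the median was 1.27, with list scores of -0.11, -0.23 and -1.07 in control and 0.88, 0.73 and 0.80 in knockout arrays. With that score entered in the fit, Nrip2 was at -0.48 ± 0.07 and Mgst1 at 0.44 ± 0.08. What set the choroid plexus content of an array was not tested.

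**Figure D4:**
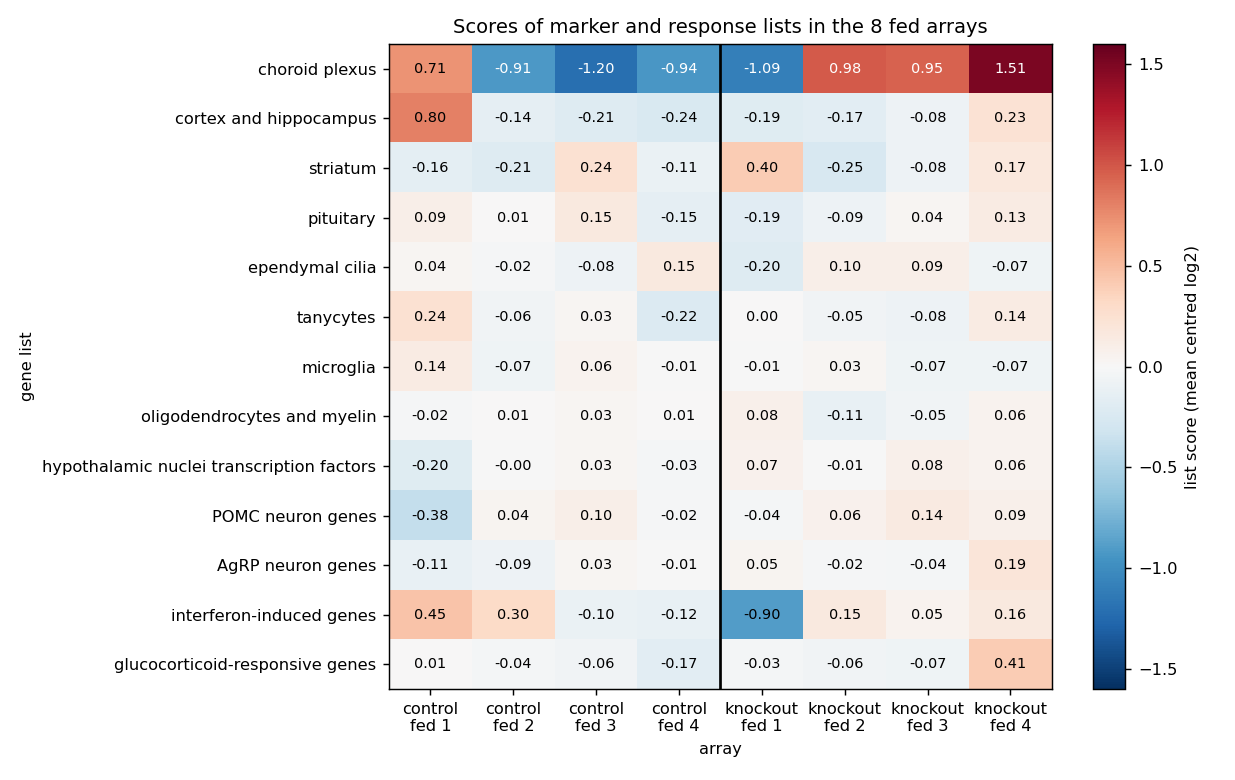
List scores (mean log2 value of a list's members, each centred on its mean over the 8 fed arrays; colour and printed number) of 13 marker and response lists (y axis) in the 4 control fed and 4 knockout fed arrays (x axis). The choroid plexus scores put control fed array 1 with knockout fed arrays 2 to 4; cortex and hippocampus stands out in control fed array 1 (0.80), interferon-induced genes in knockout fed array 1 (-0.90) and glucocorticoid-responsive genes in knockout fed array 4 (0.41).

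Control fed array 1 also carried more signal of cortex and hippocampus. The score of that list was 0.80 there, between -0.24 and -0.14 in the other control fed arrays and between -0.19 and 0.23 in the knockout fed arrays. Its 14 genes had a median difference of -0.15 with this array and 0.10 without it, none passing in either case. Bcl11b, a transcription factor of deep cortical layers and striatum, was at 9.65 in control fed array 1 and at 7.97 to 8.51 in the other 7. The hypothalamic nuclei transcription factors scored lowest in the same array, at -0.20, against -0.03 to 0.08 elsewhere. Over 23 of these the median genotype difference was 0.08, and none was below an unadjusted p of 0.05. Their part in the low Pomc, Cartpt and Isl1 values of control fed array 1 was not tested.

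Knockout fed array 1 stood apart in interferon-induced genes, the antiviral genes switched on by interferon receptors. The list score was 0.45, 0.30, -0.10 and -0.12 in control fed and -0.90, 0.15, 0.05 and 0.16 in knockout fed arrays; the 6 fasted arrays lay between -1.08 and -0.61. Psmb8, an immunoproteasome subunit, was at 6.03 to 6.15 in control fed and at 5.05, 5.93, 5.86 and 5.97 in knockout fed arrays, a difference of -0.41 ± 0.17 (limma adjusted p = 0.995). Gbp2, a guanylate-binding protein, was at -0.42 ± 0.17, from 5.82 to 6.49 in control and 5.14, 5.86, 5.82 and 5.95 in knockout fed arrays. Its other probe set, with a fed mean of 5.42 against 5.9, differed by -0.02. Psmb8 and Gbp2 were the only ones of 18 measured below 0.05, and the list median was -0.27. Without knockout fed array 1 the median was -0.06 and no member was below that mark.

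The interferon list depended on the choroid plexus setting as well. With the choroid plexus score entered in the fit its median became -0.76, 16 of 18 genes had an unadjusted p below 0.05 (7.23% of all genes under this setting), all lower, and Gbp2 passed at -0.77 (limma adjusted p = 0.00302). The cause of this shift was not tested, and the other Gbp2 probe set was not fitted with this score.

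Other lists set knockout fed array 1 apart less. The dopamine transporter gene Slc6a3, a midbrain marker, was at 5.39 there and at 7.20 to 8.30 in the other 7 arrays, and the midbrain monoamine score was -0.36 against -0.05 to 0.20. The striatum score was highest there, at 0.40. Glucocorticoid-responsive genes, whose scores in the 6 fasted arrays were 0.80 to 1.68, were at -0.03 in knockout fed array 1, among the other fed arrays. The highest fed score of that list, 0.41, was in knockout fed array 4. Sgk1, a kinase induced by glucocorticoids, was at 10.79 in that array and at 9.22 to 9.42 in the other 7. Sult1a1, a sulfotransferase of the same list, was at 7.85 there and differed by 0.55 ± 0.19 (limma adjusted p = 0.995), with -0.35 in fasted mice. The list median was 0.09, and 0.03 without knockout fed array 4.

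Stress-response pathways were near level apart from single members. Of 20 genes of the integrated and mitochondrial stress response, 2 were lower at an unadjusted p below 0.05. Atf5, a transcription factor of the mitochondrial unfolded protein response, was at 7.11, 7.07, 7.02 and 7.04 in control fed and 6.78, 6.82, 7.03 and 6.88 in knockout fed arrays, a difference of -0.18 ± 0.06 (limma adjusted p = 0.995). Ddit3, the CHOP factor of the same response, was at -0.16 ± 0.06 with separate groups. Both were of the opposite sign in fasted mice, at 0.09 each, and the list median was 0.00. None of 20 endoplasmic reticulum stress genes and none of 12 heat shock chaperones was below that mark. Among 19 antioxidant genes, Gsr, glutathione reductase, was higher by 0.14 ± 0.06 (fasted 0.18). Its other probe set, with a fed mean of 7.73 against 7.82, differed by -0.03.

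Metabolic lists gave at most 1 gene each at an unadjusted p below 0.05. Cpt1a, which admits long-chain fatty acids to mitochondria, was higher by 0.16 ± 0.07, 1 of 14 genes of fatty acid oxidation and ketone metabolism, with a list median of 0.07. Mvk was the one of 16 cholesterol synthesis genes, at 0.16 ± 0.07, and its other probe set was at 0.01. None of 23 genes of glucose sensing and glucose metabolism was below 0.05, within -0.15 to 0.17. Lamp2, a lysosomal membrane protein, was higher by 0.20 ± 0.07, 1 of 15 autophagy and lysosome genes. Its other probe sets were at -0.01 and 0.225. Bhlhe41, a circadian repressor on chromosome 6, was lower with separate groups, at -0.29 ± 0.11, the one of 17 clock genes, and at -0.02 in fasted mice. Its other probe set was at -0.16 in fed mice. None of 17 immediate early genes was below 0.05.

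Markers of glia and vessels differed little. Tmem119, a microglial membrane protein, was at 6.64, 6.47, 6.61 and 6.43 in control fed and 6.08, 6.36, 6.24 and 6.17 in knockout fed arrays, a difference of -0.32 ± 0.12 (limma adjusted p = 0.995) and -0.02 in fasted mice. Tyrobp, a microglial adaptor, was at -0.19 ± 0.08. These were the 2 of 9 microglial genes below an unadjusted p of 0.05, against 4.62% of all genes, and the list median was -0.08. Fcrls, the only member higher in the knockout mean, had the largest difference of the list, 0.44, and was not below that mark. Of 15 endothelial and pericyte genes, Pecam1 (-0.30) and Rgs5 (-0.16) were lower at an unadjusted p below 0.05. Other Rgs5 probe sets were at -0.175, -0.043 and 0.015. The 12 astrocyte, 13 oligodendrocyte and 7 oligodendrocyte precursor genes had medians between -0.01 and 0.00 and no member below 0.05. The tanycyte list, of glia lining the third ventricle, had a median of -0.12, which was 0.04 without control fed array 1. Its one member of 10 below 0.05, Col23a1, a membrane collagen, was higher, by 0.39 ± 0.15. Other Col23a1 probe sets, with fed means of 4.87 and 4.65 against 4.98, differed by 0.03 and 0.21.

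**Figure D5:**
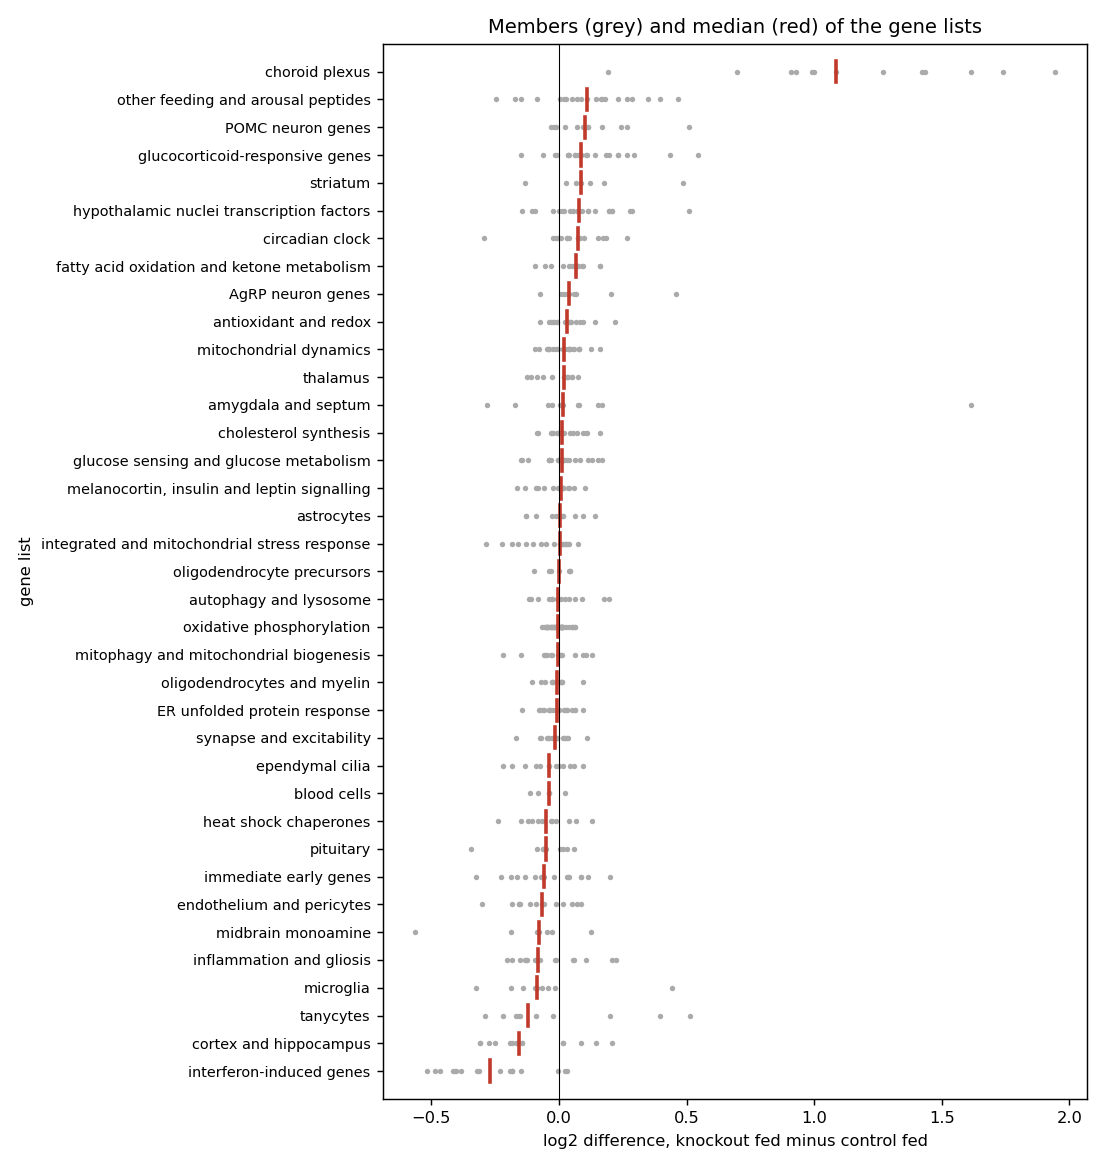
Log2 difference between knockout fed and control fed mice (x axis) of each measured member (grey dots) and the median (red bar) of 37 gene lists (y axis), 4 arrays a group. The choroid plexus median stands at 1.08, all others within 0.3 of 0.

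Over the 37 lists, 0 of the 555 measured members passed and 28 (5.05%) had an unadjusted p below 0.05, close to the 4.62% of all genes. For 31 lists the median lay within 0.1 of 0. Across all genes the fed and the fasted genotype differences had a Pearson's r of 0.20; genes are not independent replicates, and the choroid plexus genes were higher in both. In fasted mice no gene passed and 663 had an unadjusted p below 0.05 (3.88%), and for the change of the genotype difference with feeding the counts were 0 and 658 (3.85%).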

How the data were processed

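The deposited values are log2 expression. The submitters' processing notes name RMA, which subtracts background, brings arrays to 1 distribution and summarises probes, and affy, without versions. No further normalisation was applied. Of 45141 probe sets, 28898 named 1 gene, 551 several and 15692 none in the platform annotation; 99.3% of the gene IDs matched a RefSeq table of GRCm38.p6, used only for names, chromosomes and gene order, since no source used here states the build of the annotation.

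Groups came from the sample titles. limma 3.58.1 in R 4.3.3 fitted 1 coefficient per group over all 14 arrays (residual degrees of freedom 10, prior 3.27); tests were two-sided, and the pipeline was tested on simulated data. The fasted arrays add to the estimate of the spread. No pair of fed arrays shared more than 2.86% of values, so none is a copy of another. Each array counted as 1 sample, which that check cannot establish.

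Genes named by rule were 12 fixed ones, of which 9 were measured, up to 15 per direction past the threshold or, with fewer than 5, the 8 lowest p, up to 4 per list, and 2 neighbours of a gene that passed. Clone names were counted only. Lmo3, Efr3b, Kcnj13, Sulf1, Cd9, Cdkn1b, Rab19 and Cpa4 fell outside these rules and were named after their values were seen. The comparison, the lists and the genes were chosen with earlier results of these data known.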

Additional observations from a re-analysis of the deposited data

Results flagged for a closer look

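In each fed group of 4 arrays, the highest or lowest array was compared with the others for the named genes and the list scores by Dixon's ratio, the gap to the nearest array over the whole range, against its 95% critical value. Of 194 such comparisons 24 exceeded it, where chance gives about 1 in 20 groups. Some of the named genes were chosen after their values were seen, so this share is no test. Genes of a list share their arrays and are not separate cases. Control fed array 1 accounted for 7, control fed array 2 and knockout fed arrays 1 and 4 for 4 each.

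Control fed array 1 was far above its group for the list scores of choroid plexus (0.71; others at most -0.91), cortex and hippocampus (0.80) and glucose sensing and glucose metabolism (0.059), and for Kcnj13 (8.21), Bcl11b (9.65) and Lmo3 (9.43). It was far below for Isl1 (6.73). Knockout fed array 1 was far below its group for the interferon-induced score (-0.90), Psmb8 (5.05), Gbp2 (5.14) and Kcnj13 (4.76; others 8.42 to 9.17). Knockout fed array 4 was far above for the glucocorticoid-responsive score (0.41), Sgk1 (10.79), Gsr (7.95) and Lamp2 (10.02).

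The remaining cases were single values. Control fed array 2 was high for Gabpa (8.56), Itfg2 (7.67) and Ddit3 (8.72) and low in the cholesterol synthesis score (-0.14). Control fed array 4 was low for Mff (10.77) and in the endothelium and pericytes score (-0.17). Hrob was high in control fed array 3 (5.33) and in knockout fed array 2 (4.55), and Cpa4 in knockout fed array 3 (4.39).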

How the results depend on the processing

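The fed comparison had 1 gene past the threshold. Other settings gave 0 to 2. The count was 2 without the 40% of genes with the lowest mean, with a trended and robust prior and with array weights (Nrip2 and Mgst1 each time; Mgst1 adjusted p = 0.0355, 0.00264 and 0.0252), and 2 with the number series of the titles as a covariate, which equals leaving out knockout fed array 1 (Nrip2 and the heparan sulfatase gene Sulf1, 0.68). It was 0 with probe sets averaged per gene, with only the fed arrays in the fit (Nrip2 adjusted p = 0.215), with arrays centred on their median (0.0612), without both control fed array 1 and knockout fed array 4, with the cortex and hippocampus, pituitary, striatum or hypothalamic transcription factor score or the Actb 3′ minus 5′ difference as a covariate, and with every of the 45141 probe sets tested by itself, a setting added after seeing the data (lowest adjusted p = 0.15). With the choroid plexus score entered in the fit it was 1, Gbp2 and not Nrip2. Leaving out single arrays gave 0 to 2. The Nrip2 adjusted p ranged from 0.0178 to 0.995 over its alternatives. The count at an unadjusted p below 0.05, 790, was 436 without the 40% of genes with the lowest mean, where fewer genes are tested, and 1236 with the choroid plexus covariate. In fasted mice 0 genes passed, but 3 with the number series as a covariate, 2 with the choroid plexus covariate and 0 to 3 with single fed arrays left out; the change with feeding gave 0, but 1 with the number series and 0 to 1 with single arrays left out. Where no construction is named, the cause was not tested. Of 1425 values of single named genes under other settings, none that passed changed sign and 21 that did not pass had the other sign. No paired analysis was possible because the sample numbers in the titles are all different and pair no arrays. With 4 arrays a group the median gene's difference is known to within 0.18, and signals near the background of 3.64 carry little information.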

Other observations

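Probe sets that name several genes or none, 16243 in all, entered no comparison above. Tested with all others in 1 fit over 45141 probe sets, a setting added after seeing the data, none passed (lowest limma adjusted p among them 0.174), and 4.93% had an unadjusted p below 0.05, against 4.6% of the probe sets that name 1 gene.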
